A study of Urocitellus parryii with 3 samples.

Results

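The miR-34 family was examined in the liver of a hibernator, the arctic ground squirrel Urocitellus parryii, through the entries mmu-miR-34a and mmu-miR-34c (miR-34a and miR-34c below). Both were taken by name from the non-control spots of a mouse miRNA microarray, and they are 2 of 577 entries on it, of which 567 are mouse miRNAs and 10 are viral. The groups were early arousal, when the animal rewarms from torpor, late torpor, the state of low body temperature and slow metabolism before it, and post-reproduction, a stage outside hibernation. Each group was 1 pool of total liver RNA on 1 array labelled with Cy3, mixed from equal amounts of RNA per animal. The labels name no genotype, age or treatment, and they do not say how many animals a pool held. With 3 arrays in all there is no replicate of a stage, so no test between stages exists, and stage, pool and array cannot be told apart. Every error below comes from repeated spots on an array.

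miRNAs are short RNAs that pair with messenger RNAs, mostly through the bases of their seed near the 5′ end, and lower the output of those messages. The miR-34 family is known as a direct transcriptional target of the tumour suppressor p53 and acts against cell division, and its messages include those of cyclins, cyclin-dependent kinases, Met, Bcl2 and the deacetylase Sirt1. In mammals miR-34a comes from a gene of its own and is the member found widely in adult tissues, including liver, where in mice it is studied for its control of Sirt1 and of lipid and bile acid metabolism. miR-34b and miR-34c are made from 1 transcript and are most abundant in tissues such as lung and testis, and in multiciliated cells. miR-449a, miR-449b and miR-449c share the family's seed and are made in mice from an intron of Cdc20b, a gene of multiciliated cells. p53 itself was not measured on these arrays.

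Each member had 2 probes with 10 spots per array. Per the files, the probes of miR-34a matched mouse chromosome 4 at 149442584 to 149442603, and those of miR-34c chromosome 9 at 50911181 to 50911200 (mm9). The other arms on the array lay beside miR-34c: miR-34c* at 50911149 to 50911162, miR-34b-3p at 50911679 to 50911694 and miR-34b-5p at 50911715 to 50911736, with 514 bases between the probed stretches of miR-34b-5p and miR-34c. The miR-449 entries lay on chromosome 13, miR-449a at 113827759 to 113827778, miR-449b at 113827639 to 113827656 and miR-449c at 113826221 to 113826236. These are mouse positions, and no sequence of the squirrel's own miRNAs was used here.

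The arrays were close in overall signal. By the rule used here, 152 mouse miRNAs (26.8%) were detected in early arousal, 158 (27.9%) in late torpor, against 143 (25.2%) in post-reproduction. That rule asks that more than 50% of a probe's spots, without outliers, carry the program's flag for a signal well above background. The lowest spot with that flag had 10.1 units of intensity in early arousal, 8.49 in late torpor, against 10.7 in post-reproduction. The 95th percentile of the 672 negative control spots per array lay between 5.25 and 5.31. The hepatocyte miRNA miR-122 averaged 36300 units of intensity in early arousal, 41900 in late torpor, against 36600 in post-reproduction. Of 8 neural miRNAs, which would mark other tissue with miR-34, miR-128 alone was detected, on every array.

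miR-34a was detected on all 3 arrays, and it was lower in early arousal than in either other stage. Its first probe (A_54_P2498) gave 16.8 to 21.4 units of intensity in early arousal (median 19.2, 10 spots), 34 to 39.6 in late torpor (median 35.3, 7 spots) and 32.2 to 41.6 in post-reproduction (median 39.2, 10 spots). Its second probe (A_54_P2499) gave 49.3 to 63.5 in early arousal (median 53.9, 10 spots), 96.8 to 127 in late torpor (median 113, 10 spots) and 116 to 137 in post-reproduction (median 122, 9 spots). On both probes every early arousal spot lay below every late torpor and every post-reproduction spot. The late torpor and post-reproduction spots overlapped on both probes. Across these stages the order was early arousal, late torpor and post-reproduction from low to high before scaling, and the neighbours late torpor and post-reproduction did not differ beyond the spread of their spots.

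**Figure D1:**
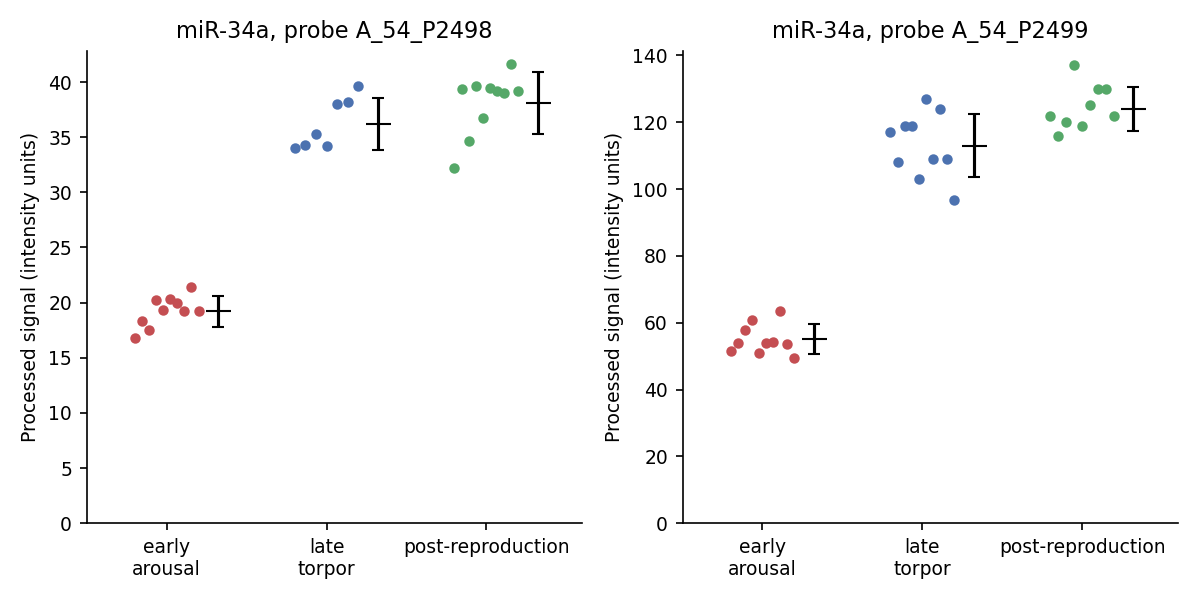
Processed signal of each spot of miR-34a (intensity units, axis from 0) by stage, in 1 panel per probe, without outlier spots; the black mark is the mean with its SD over spots. The early arousal spots lie between 16.8 and 21.4 on the first probe and between 49.3 and 63.5 on the second, below all spots of the other stages.

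As means, the first probe had 19.2 ± 1.38 units of intensity in early arousal, 36.2 ± 2.34 in late torpor, against 38.1 ± 2.78 in post-reproduction (SD over 10, 7 and 10 spots). The second had 55 ± 4.50 in early arousal, 113 ± 9.49 in late torpor, against 124 ± 6.58 in post-reproduction (SD over 10, 10 and 9 spots). The 2 probes therefore gave the same order. The spots left out as outliers did not set it: they were 3 spots of the first probe in late torpor, at 30.6, 40.9 and 41.7, and 1 spot of the second in post-reproduction, at 99.3, all above the early arousal spots of their probe.

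The program's own summary over both probes, its total gene signal with its error estimate, was 52.7 ± 4.62 in early arousal, 107 ± 8.70 in late torpor, against 116 ± 9.56 in post-reproduction. The signal was weak beside the background that the program subtracts. On the first probe the raw mean was 74.9 in early arousal, 94.2 in late torpor, against 95.2 in post-reproduction, of which 55.6, 58.0 and 57.1 in the same order were subtracted as the fitted trend. Of the 10 viral entries, which a squirrel liver should lack, 1 was detected in early arousal, 2 in late torpor, against 1 in post-reproduction. The detected entry mghv-miR-M1-2 averaged 18.2 units of intensity over its probes in early arousal, 23.4 in late torpor, against 22.1 in post-reproduction. Levels of different probes cannot be ranked against each other, so these values show only that a flagged signal of this size occurred on these arrays for an entry of no squirrel miRNA.

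miR-34c was not well above background on any array. None of its 20 spots carried the flag on any of the 3 arrays, and 11 of them in early arousal, 10 in late torpor, against 13 in post-reproduction were at or below 0. The spots ran from -2.55 to 3.85 units of intensity in early arousal, from -2.03 to 3.39 in late torpor and from -3.48 to 3.79 in post-reproduction. All of them lay below the lowest spot with the flag on their array, and they overlapped between stages. No fold between stages can be given for it. Its total gene signal was -0.311 ± 2.04 in early arousal, -0.00582 ± 1.72 in late torpor, against -0.740 ± 2.15 in post-reproduction (errors as the program gives them), so 0 lay within the error each time. A level of miR-34c below about 10 intensity units was not detectable on these arrays, and the match of the squirrel's miR-34c to the mouse probe was not tested.

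The other products of the miR-34b and miR-34c transcript were likewise not detected. miR-34b-5p averaged 1.46 intensity units over its probes in early arousal, 1.17 in late torpor, against 0.736 in post-reproduction. miR-34b-3p averaged 0.186 in early arousal, -0.289 in late torpor, against -0.171 in post-reproduction, and miR-34c*, the passenger strand, averaged -1.79, -1.0 and -1.30 in the same order. A single spot of these entries, 1 of miR-34c* in late torpor at 12.6, carried the flag. So of the 5 entries of the miR-34 family on the array, miR-34a was the 1 with a measured level. That is near the share of all mouse miRNAs detected per array, 25.2% to 27.9%.

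Among the seed relatives, miR-449a was detected on every array with all 20 spots, while miR-449b and miR-449c were detected on none. On its first probe (A_54_P2743) miR-449a had 480 ± 23.1 units of intensity in early arousal, 305 ± 13.3 in late torpor, against 340 ± 11.8 in post-reproduction (SD over 10 spots each). On its second (A_54_P2744) it had 1460 ± 110 in early arousal, 972 ± 74.9 in late torpor, against 942 ± 64.8 in post-reproduction. Early arousal was thus the highest stage for miR-449a and the lowest for miR-34a, and on both miR-449a probes the early arousal spots did not overlap those of either other stage. miR-449b averaged 0.274, -0.139 and 0.423 in early arousal, late torpor and post-reproduction, and miR-449c -1.17, -0.756 and 0.396. One miR-449b spot carried the flag, in early arousal.

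**Figure D2:**
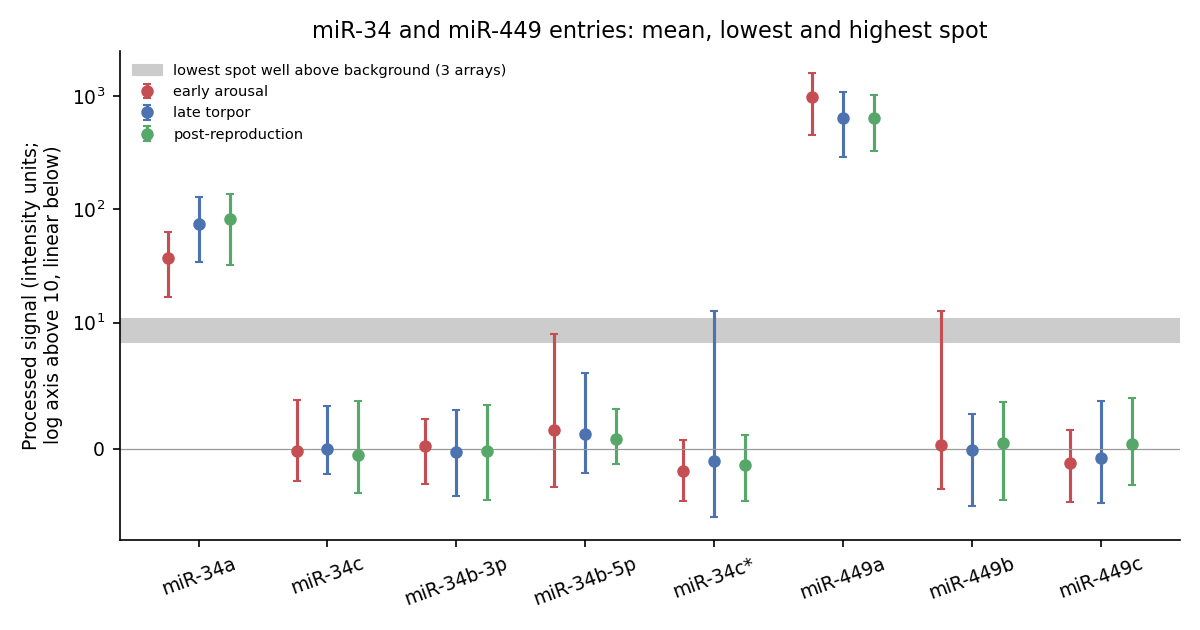
Processed signal of the miR-34 and miR-449 entries by stage (intensity units, log axis above 10 and linear below); points are the mean over the probes, bars run from the lowest to the highest spot, and the grey band spans the lowest flagged spot of the 3 arrays (8.49 to 10.7). miR-34a and miR-449a lie above the band with opposite early arousal positions, and the means of the other 6 entries lie near 0.

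To compare stages, each array's log2 intensity was set relative to its own 75th percentile, taken over the 250 probes that were detected on every array. The 135 mouse miRNAs with at least 1 of these probes are called measured. The rule of size asks for a log2 difference of at least 1 (2-fold), above 2 times its spot SE and with the same sign on each measured probe. Of the 135, 5 passed it between early arousal and post-reproduction (3.7%), 3 between late torpor and post-reproduction (2.22%) and 4 between early arousal and late torpor (2.96%). miR-34a passed in none of the comparisons as processed here. The first 2 comparisons share the post-reproduction array, and early arousal and late torpor each enter 2 comparisons.

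The first comparison asked how the family's level in early arousal differs from that outside hibernation. miR-34a had a scaled log2 level of -3.43 in early arousal and -2.53 in post-reproduction. The log2 difference was -0.90 ± 0.03 (SE from spots), or 1.87-fold lower in early arousal (95% interval from spots 1.78 to 1.95). The first probe gave -0.80 ± 0.05 and the second -0.997 ± 0.04. That spread between probes, 0.19, was wider than the median of 0.073 over the 105 miRNAs with more than 1 measured probe. The difference was the third lowest of 135. Those below it were miR-378 at -1.08 and miR-500 at -0.98, and the next above was miR-200b at -0.73 ± 0.05. Among the 68 dimmer of the measured miRNAs miR-34a was the third lowest as well. Of all measured miRNAs 1 passed the rule in this direction (0.741%), which was miR-378. The median of all measured miRNAs was 0.062, and the miR-34a difference minus this median was -0.96, a value that does not change when whole arrays are shifted.

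Early arousal against late torpor gave nearly the same picture. miR-34a had a scaled log2 level of -3.43 in early arousal and -2.45 in late torpor, a log2 difference of -0.98 ± 0.04, or 1.98-fold lower in early arousal (1.88 to 2.08). The probes gave -0.92 ± 0.05 and -1.05 ± 0.05. It was again the third lowest of 135, after miR-144 at -1.30 and miR-500 at -1.26 and before miR-142-5p at -0.83 ± 0.06. Those 2 were the miRNAs past the rule in this direction (1.48%). The median of all measured miRNAs was -0.094, and the miR-34a difference minus this median was -0.89.

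Late torpor against post-reproduction showed no clear difference. miR-34a had a scaled log2 level of -2.45 in late torpor and -2.53 in post-reproduction, a log2 difference of 0.084 ± 0.03. It stood 60th from the lowest of 135, between miR-27b at 0.084 and miR-335-5p at 0.086, and its difference minus the median of all, which was 0.13, was -0.048. Its sign turned under other scalings, with values from -0.31 to 0.12 over the processing choices tried.

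**Figure D3:**
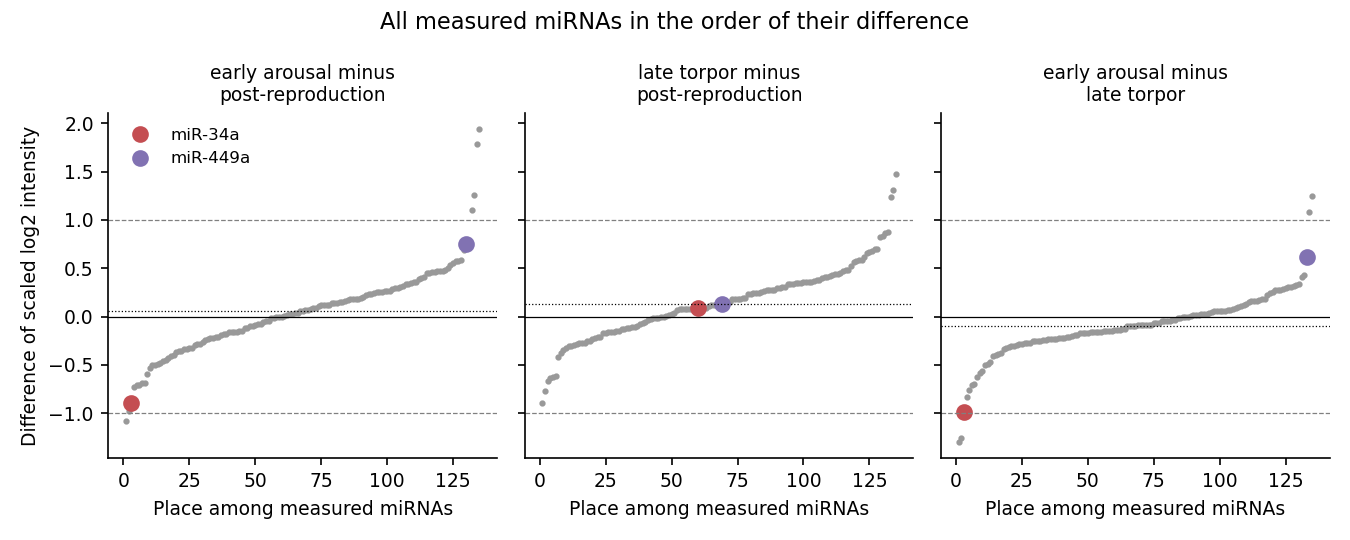
Differences of scaled log2 intensity of the 135 measured miRNAs, in ascending order, in 1 panel per comparison; dashed lines mark a 2-fold difference and the dotted line the median. miR-34a is the third from the lowest in both comparisons of early arousal and near the middle for late torpor against post-reproduction, while miR-449a is the 6th and the third from the highest in them.

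Both early arousal differences were smaller in size with normexp background correction and its offset. An offset added to every spot lowers the fold of a weak signal by itself, and normexp without one was not run. With normexp correction of the raw signal, which adds an offset of 50 units to every spot, miR-34a was at -0.36 in early arousal against post-reproduction (7th lowest of 135) and at -0.46 against late torpor (the third lowest). Over the 5 other scalings, no scaling included, it ran from -1.27 to -0.86 against post-reproduction, and 3 of them passed the rule of size. Against late torpor it ran from -1.23 to -0.77, and the scaling over all probes with spots at or below 0 at the floor alone passed. Taken from spots in the upper rows of the array alone, the differences were -0.886 and -0.967, and from those in the lower rows -0.918 and -1.002.

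miR-449a differed in the other direction. It was 1.68-fold higher in early arousal than in post-reproduction (95% interval from spots 1.62 to 1.75; log2 difference 0.75 ± 0.03, 6th highest of 135). Against late torpor it was 1.53-fold higher in early arousal (1.48 to 1.60; 0.62 ± 0.03, the third highest). Late torpor minus post-reproduction was 0.13 ± 0.03, a sign that turned under 5 of 11 other settings. It did not pass the rule of size in any comparison. The miR-34a difference minus the miR-449a difference, in which array scaling cancels, was -1.65 ± 0.04 for early arousal against post-reproduction and -1.60 ± 0.05 for early arousal against late torpor. Over the 11 alternatives it ran from -1.82 to -1.03 in the first and from -1.63 to -1.02 in the second. For late torpor against post-reproduction it was -0.049 ± 0.04. This comparison of the pair was chosen after its values were seen, and whether the probes of miR-34a and miR-449a share signal was not tested.

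Other miRNAs that p53 is known to raise, by transcription or by faster processing, lay closer to 0 in early arousal than miR-34a did. Of 12 such entries, 8 were measured, beside 135 of 567 mouse entries on the array. In no comparison did any of the 8 pass the rule of size. Of all measured miRNAs 3.7%, 2.22% and 2.96% passed in the 3 comparisons, so 0 of 8 is near that share. miR-192 and miR-194, made together and abundant in liver, were at 0.16 and 0.085 in early arousal against post-reproduction. miR-107, which lies in an intron of a pantothenate kinase gene, was the lowest at -0.16 and miR-15a the highest at 0.57, with its cluster partner miR-16 at 0.45. miR-143 and miR-145, made from 1 transcript in smooth muscle and related cells, were at -0.013 and 0.060, and miR-22 at -0.084. The median of the 8 was 0.072, beside 0.062 over all measured miRNAs.

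Against late torpor the 8 lay between -0.13 for miR-16 and 0.058 for miR-194 in early arousal, with a median of -0.040 beside -0.094 over all. In late torpor against post-reproduction they lay between -0.12 for miR-107 and 0.66 for miR-15a, with a median of 0.076 beside 0.13. Their signs moved with the scaling: 5 of 8 were above 0 in early arousal against post-reproduction as processed here, and 2 of 8 without scaling. Those not measured were miR-215, miR-145*, miR-200c and miR-141, with 0 detected probes on any array.

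miRNAs that are known to act on the p53 message itself (in human cells miR-125b, miR-504, miR-25 and miR-30d) were measured in 3 of 4 cases, beside 135 of 567 mouse entries on the array. miR-504 was not detected. In early arousal against post-reproduction miR-125b-5p was at 0.25, miR-25 at 0.31 and miR-30d at 0.23. All 3 were below 0 with all probes in the scaling and spots at or below 0 at the floor. Without that substitution all 3 stayed above 0, and with every spot required well above background 2 of the 3 were below 0. Against late torpor they were at 0.023, -0.17 and -0.018 in early arousal. In late torpor against post-reproduction they were at 0.23, 0.48 and 0.25. None passed the rule of size, which 2.22% to 3.7% of all measured miRNAs passed per comparison.

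**Figure D4:**
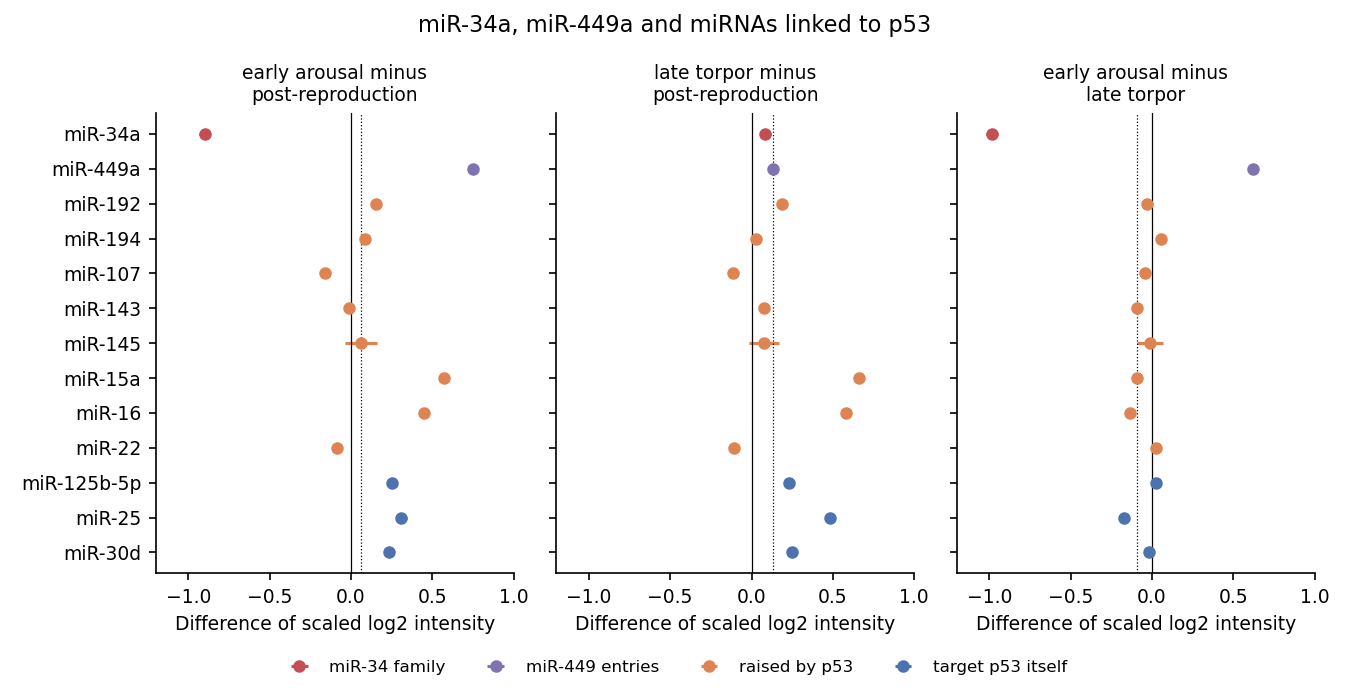
Difference of scaled log2 intensity (points, with the SE from spots) of miR-34a, miR-449a, 8 measured miRNAs raised by p53 and 3 that act on p53, in 1 panel per comparison; the dotted line is the median of all measured miRNAs. In both comparisons of early arousal miR-34a lies at -0.90 and -0.98, left of all the others, which run from -0.17 to 0.75.

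By the distance between their centred log2 values over the 3 arrays, the measured miRNAs most like miR-34a were miR-500, miR-324-5p, miR-150, miR-184 and miR-142-3p. Their distances were 0.20, 0.28, 0.38, 0.41 and 0.48, beside a median of 0.79 over 134 miRNAs, and they do not change when whole arrays are shifted. miR-34a itself lay at -0.63 in early arousal, 0.36 in late torpor, against 0.27 in post-reproduction around its own mean. miR-500, the nearest, averaged 12.1 units of intensity in early arousal, 28.3 in late torpor, against 26.6 in post-reproduction. miR-324-5p had 14.6, 21.8 and 26.9 and miR-184 had 113, 149 and 209 in the same order of stages, over measured probes. With 3 arrays such a likeness is a description. It depends on the processing, as quantile normalization kept 3 of the 5 among the nearest and normexp 2 of the 5. With every spot required well above background 3 of the 5 were kept, and miR-500 and miR-150 dropped out. miR-150 averaged 10.6 units in early arousal, 17.1 in late torpor, against 15.5 in post-reproduction. In early arousal both thus lay near the lowest flagged spot of that array, at 10.1.

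miR-150 and miR-142-3p are miRNAs of white blood cells, and markers of blood cells also differed between stages. Of 6 leukocyte miRNAs 5 were measured, beside 135 of 567 mouse entries on the array. All 5 were lower in early arousal than in late torpor, with log2 differences from -0.83 (miR-142-5p) to -0.21 (miR-146a). Their median was -0.63, beside -0.094 over all measured miRNAs, so most measured miRNAs were below 0 there too. The summed mean signal of the list was 423 in early arousal, 598 in late torpor, against 487 in post-reproduction, with miR-155 not detected. In early arousal against post-reproduction 4 of the 5 were lower, with a median of -0.22 beside 0.062 over all, while miR-223 was higher. With normexp 2 of the 5 were lower. miR-223 turned below 0 with all probes in the scaling where spots at or below 0 took the floor. It also did so with every spot required well above background. The 3 red blood cell miRNAs (miR-144, miR-451, miR-486) summed to 1950 in early arousal, 3220 in late torpor, against 1550 in post-reproduction. All 3 were lower in early arousal than in late torpor, with a median of -0.76 beside -0.094 over all. All 3 were higher in early arousal than in post-reproduction, with a median of 0.53 beside 0.062 over all, though miR-144 was lower under 4 of the 11 alternatives listed beforehand. The epithelial list summed to 44.2 in early arousal, 41.0 in late torpor, against 82.4 in post-reproduction, with 2 of 5 members measured and miR-200c, miR-141 and miR-429 not detected. Of 4 muscle miRNAs, 2 were detected in early arousal, 3 in late torpor, against 0 in post-reproduction, all of them near the limit of detection. The share of all mouse miRNAs detected was 26.8%, 27.9% and 25.2% in the same order. The summed mean signal of the 4 was 19.0 in early arousal, 31.6 in late torpor, against 14.6 in post-reproduction, and miR-206 was detected on no array. The neural list summed to 30.7 in early arousal, 43.3 in late torpor, against 34.4 in post-reproduction. After scaling, its measured member miR-128 was at 0.12 in early arousal against post-reproduction, the other direction from the sums. The part of these cells in the miR-34a difference was not tested. In whole liver RNA, fewer cells of a type and less RNA per cell cannot be told apart.

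**Figure D5:**
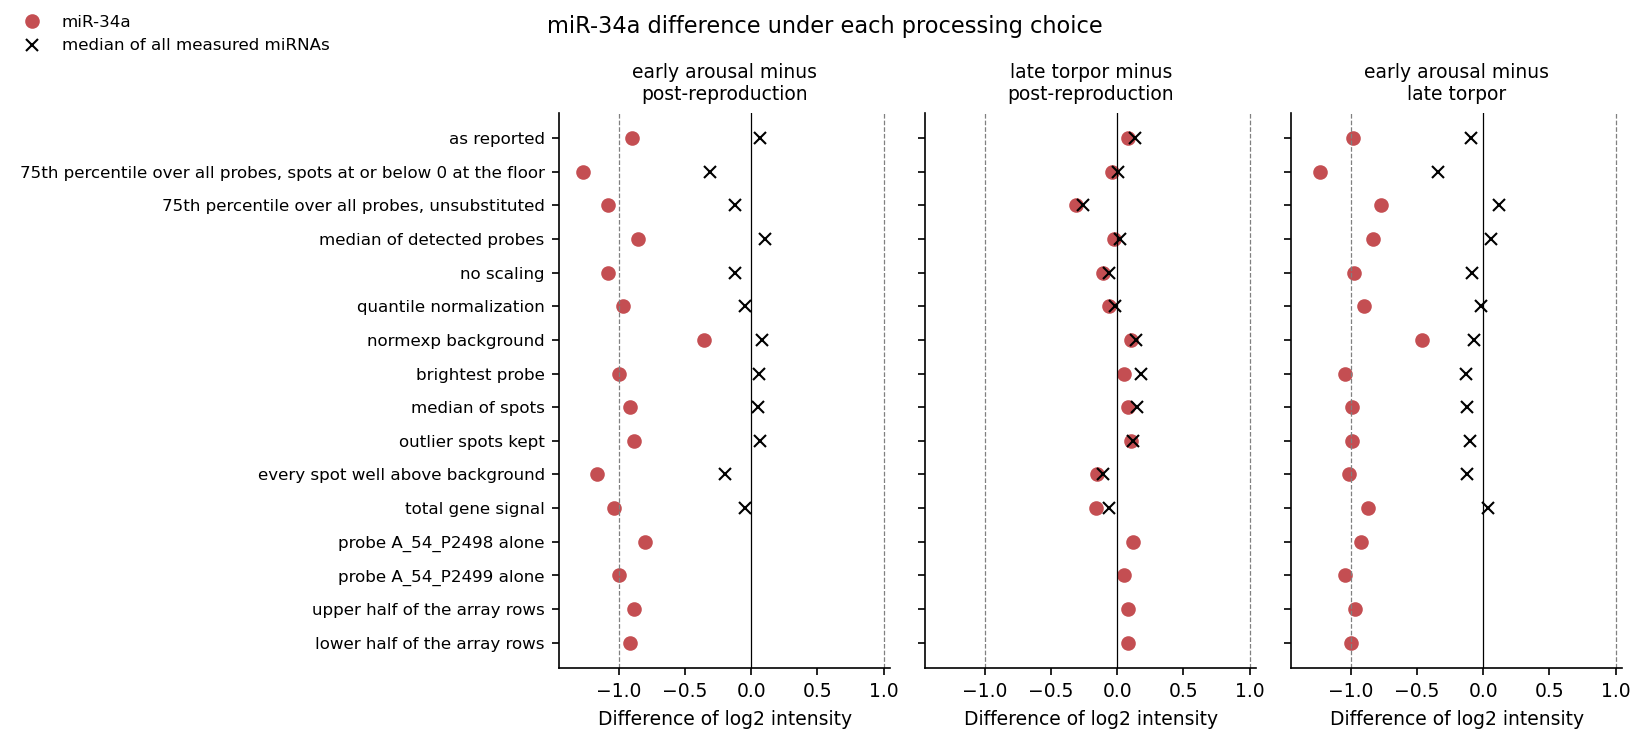
Difference of log2 intensity of miR-34a (red points) under each processing choice, with the median of all measured miRNAs (crosses) where it applies, in 1 panel per comparison; dashed lines mark 2-fold. In both comparisons of early arousal miR-34a lies below 0 under all 15 alternatives, from -1.27 to -0.36 and from -1.23 to -0.46, and in late torpor against post-reproduction it falls on both sides of 0.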

How the data were processed

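Liver RNA was extracted with TRIzol, pooled by stage and labelled, per the labels' protocols. Per the file headers and the submitters' processing notes, the scanner images were quantified by Agilent Feature Extraction 9.5.3.1. The authors' deposited intensity is a spot's signal after subtraction of a fitted spatial trend, on a linear scale with no normalization between arrays, per the file headers. The deposited flags (well above background, outlier, saturated) are other values of the same program. The authors' deposited series table equalled the scanner intensity at all 12493 spots of each array (relative tolerance 1e-05), uncentred, with medians of 1.05 in early arousal, 1.15 in late torpor, against 1.13 in post-reproduction.

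From these, control spots and outlier spots (398 of 11540 in early arousal, 280 in late torpor, 317 in post-reproduction) were dropped. Spots at or below 0 took the lowest flagged signal of their array, log2 values were averaged per probe, and arrays were scaled by the 75th percentile over probes detected on all arrays. A miRNA is the mean of its measured probes. No spot of a miRNA was saturated. The precision is limited by the number of arrays, 1 per stage, and SEs cover spots only. The computation was tested on simulated data, in which all spots were positive and the planted changes were larger than those of miR-34a. That test does not cover weak signals near background. Python 3.11.15, numpy 2.4.6, pandas 2.3.3 and, for normexp, limma 3.58.1 in R 4.3.3 were used.

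The alternatives were 11 listed beforehand (scaling, background correction, value per miRNA, spot summary, outliers, detection) and 4 chosen after seeing the data (each probe, the upper and the lower rows of the array). The members, lists and alternatives were chosen with earlier results of these data known. By a fixed rule the named miRNAs are the family's and miR-449 entries, the measured members of the lists on p53, the 5 nearest to miR-34a over the arrays and its neighbours in each order. Members of the marker lists, undetected members of the lists on p53, other miRNAs past miR-34a in an order and a viral entry are named outside that rule, after their values were seen. Marker lists covered hepatocyte, red blood cell, leukocyte, neural, epithelial, mesenchymal and muscle miRNAs. No mature miRNA sequence was used here.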

Additional observations from a re-analysis of the deposited data

How the results depend on the processing

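miR-34a stayed below 0 in early arousal under all 15 alternatives in both comparisons. Against post-reproduction it passed the rule of size with all probes in the scaling (-1.27), the same without substitution (-1.08), no scaling (-1.08) and every spot required well above background (-1.16). It also passed with the total gene signal (-1.03), where the rule took the SE as processed here and checked no sign per probe. The lowest size was -0.36 with normexp. Against late torpor it passed with all probes (-1.23), the brightest probe, which is also the second probe alone (-1.05), and strict detection (-1.01). The lowest size there was -0.46 with normexp. Spots in the lower rows alone gave -1.002, but for them the size alone was checked, not the SE or the sign per probe. In late torpor against post-reproduction it turned below 0 with all probes (-0.040), without substitution (-0.31), with the median (-0.027), no scaling (-0.11), quantile normalization (-0.064), strict detection (-0.15) and the total gene signal (-0.16). Whole-array scalings leave miR-34a's place among 135 miRNAs as it was.

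The count past the rule in early arousal against post-reproduction was 10 with all probes (2 higher, 8 lower) and 2 with normexp, against 5 as reported (4 higher, 1 lower). It was 3 higher and 3 lower without scaling. In late torpor against post-reproduction it was 7 with the unsubstituted scaling (1 higher, 6 lower), 5 with strict detection and 1 with normexp, against 3 (3 higher, 0 lower), and 3 higher and 1 lower with all probes, the median, no scaling and the total signal. In early arousal against late torpor it was 0 with normexp, against 4 (2 higher, 2 lower), and 0 higher and 5 lower with all probes. A whole-array scaling shifts all differences of a comparison by the same amount, and the count past a fixed size moves with it. With all probes the median over all was -0.31 in early arousal against post-reproduction, beside 0.062 as reported. Against late torpor it was -0.34, beside -0.094. For the other choices the cause was not tested. miR-34c was detected on 0 arrays also with outliers kept, with strict detection and by the program's own call. No muscle miRNA was detected on all 3 arrays, so none has a difference between stages. The 3 measured mesenchymal miRNAs lay between -0.013 and 0.062 in early arousal against post-reproduction. No paired analysis was possible because each stage had 1 array. Signals near 10 intensity units are at the limit of detection.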
